A study of Mus musculus with 6 samples.

Results

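The nuclear oxidative phosphorylation genes are the nucleus-encoded subunits of the respiratory chain and of the ATP synthase. They were taken here as every gene of the matrix whose symbol starts with Nduf followed by the letter of a subunit class and a digit, or with Uqcr, Cox4 to Cox8 or Atp5, leaving out Ndufa4l2 and pseudogene names. The rule found 80 of the 27998 genes of the matrix. Of these, 7 encode core subunits and 29 accessory subunits of complex I, 8 belong to complex III, 19 to complex IV and 15 to complex V, the ATP synthase. The other 2, Atp5s and Atp5sl, carry the name but are no subunits. The name filter also leaves out some nuclear genes of the same machinery, such as Cyc1 and the subunits of complex II, which are described beside the members.

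Complex I takes electrons from NADH and complex III passes them through cytochrome c to complex IV, the cytochrome c oxidase, which reduces oxygen. The proton gradient made on the way drives the ATP synthase. Several complex IV subunits come in isoforms from separate genes that differ between tissues, and neurons of the retina are known for a high demand for ATP.

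Droplet single-cell RNA-seq had been run on mouse retinas of embryonic day 14, in 6 libraries. The 3 groups held 2 libraries each. The first was Bax het and Atoh7 Null (the Bax het group). The second was Bax Null and not labelled Atoh7 Null (the Bax Null group), and the third was Null for both genes (the both-Null group). Bax is a protein that triggers cell death, and Atoh7 is a transcription factor known for its part in the making of retinal ganglion cells. Each group thus lacks at least 1 of both genes, no group had both intact, and the labels name no strain, Cre or promoter. The labels do not say whether 2 libraries of a group came from separate embryos, so p-values measure only the spread between these libraries. The cell types are the authors' labels: retinal progenitor cells (RPCs), neurogenic cells, retinal ganglion cells (RGCs), cones and horizontal cells. The last is called the horizontal label here, because its cells also held amacrine markers, as given below.

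The 67050 cells of the 6 libraries gave 22463515 to 66594431 UMIs (unique molecular identifiers, one per captured transcript) per library. Atoh7 had 0 UMIs in all 4 Atoh7 Null libraries, which allows up to 3 UMIs, and was at 5.96 and 6.88 CPM (counts scaled to the same library total) in the Bax Null libraries. Bax was at 144 and 108 CPM in the Bax het libraries, at 17.1 and 15 in the Bax Null libraries, and at 47.7 and 11 in replicates 1 and 2 of the both-Null group. Replicate 1 of the both-Null group thus held more Bax tags than the Bax Null libraries. Where the deletion lies relative to the 3′ tags is not given in the sources used here, so this check of the Bax labels is limited, and the groups are those of the labels. All markers of RPCs (8 of 8), RGCs (8 of 8) and cones (6 of 6) were highest in the type they mark, and 5 of 9 neurogenic markers were. The horizontal label held horizontal markers, amacrine markers and 237 to 348 CPM of 3 endothelial markers, which summed to at most 7.33 CPM elsewhere. The 6 blood markers ran over the libraries from 3.63 to 2007 CPM with that label and from 4.83 to 1692 CPM in the other types. The part of endothelial and blood tags in the results was not tested. The Bax Null libraries were deeper per cell (median 5660.5 and 6804 UMIs) than the other 4 (1634 to 2632). The 2 both-Null libraries shared 2596 cell barcodes, 17.6% and 22% of their cells, and 89.4% of these had the same cell type label in both. The other 14 pairs of libraries shared 1.36% to 2.09% of the smaller library's barcodes. The main counts of members called between this group and the others are therefore given below also without the shared cells.

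Summed over all 80 genes, transcripts for oxidative phosphorylation took the smallest share of UMIs in the RPCs of every library. The share in RPCs was 2.85% and 2.80% in the Bax het libraries, 2.98% and 3.01% in the Bax Null libraries, and 2.5% and 2.26% in the both-Null libraries. In RGCs it was 3.16% and 3.22%, 3.46% and 3.51%, and 2.78% and 2.45% in the same order. RGCs had the highest share of the 5 types in 5 of 6 libraries. The exception was replicate 1 of the both-Null group, where cones stood at 2.80%. Relative to the RPCs of the same library, the share was 1.09 to 1.17 times as large in RGCs, 1.08 to 1.14 times in cones, 1.06 to 1.13 times with the horizontal label and 1.03 to 1.1 times in neurogenic cells. These are shares of a total, so a change in the members cannot be told apart from a change in the other transcripts. Genes of the cytosolic ribosome took 21.9% to 34.5% of UMIs in RPCs and 12.8% to 21.6% in RGCs, and their part in the members' shares was not tested.

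**Figure D1:**
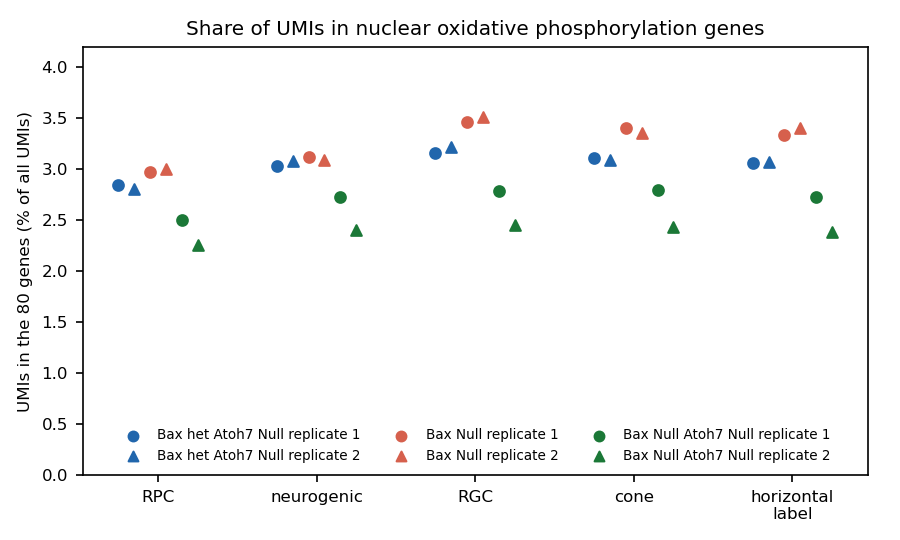
Percent of all UMIs that fell in the 80 genes (vertical axis) for the 5 cell types (horizontal axis). Each point is 1 library, coloured by group, with circles for replicate 1 and triangles for replicate 2, and the green points are the both-Null group. In every library the RPC point is the lowest of its 5, and the both-Null libraries lie below the other groups in each type.

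Gene by gene, cell types were compared within libraries with edgeR's quasi-likelihood test on UMIs summed per library and type. A gene is called at a Benjamini-Hochberg adjusted p under 0.05 over all genes tested, and levels are scaled CPM, with TMM factors (trimmed means of log ratios that set the libraries on one scale). Of the 80 genes, 76 passed the filter on low counts. The other 4 are isoforms known from other tissues: Cox6a2 had 15 UMIs in all, Cox7b2 19, Cox8c 1 and Cox8b 0. In an RGC-RPC comparison in which most genes differed, 46 of the 76 genes were called higher in RGCs and 17 lower, where 79.8% of the 12180 genes tested were called, 38.4% higher and 41.3% lower. The members' median log2 difference was 0.12, against -0.03 for all genes tested. Of the called members, 43 were higher and 15 lower in all 6 libraries, and 5 were mixed.

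The other types showed smaller or mixed differences. In neurogenic cells 30 members were higher than in RPCs and 27 lower, where 65.5% of all genes were called, 31.5% higher and 33.9% lower. In cones 21 were higher and 34 lower (68.9% of all genes, 32.2% and 36.7%), and with the horizontal label 24 were higher and 25 lower (66.6%, 30.8% and 35.7%). The count of members higher in cones was 12 without replicate 1 of the both-Null group. Scaling by the total count alone turned the cone split to 46 higher and 8 lower, the horizontal one to 46 and 11, and the neurogenic one to 35 and 17, while in RGCs it gave 53 higher and 15 lower. That scaling moved the median of all genes from -0.05 to 0.15 in cones and from -0.06 to 0.08 with the horizontal label, so for cones and the horizontal label the direction of most members depends on the scaling. Against the neurogenic cells, 40 members were called higher and 20 lower in RGCs (73.5% of all genes, 35.5% and 38%). Against cones, 40 were called higher and 13 lower (52.4%, 28.6% and 23.9%), which became 30 and 27 under scaling by the total count.

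**Figure D2:**
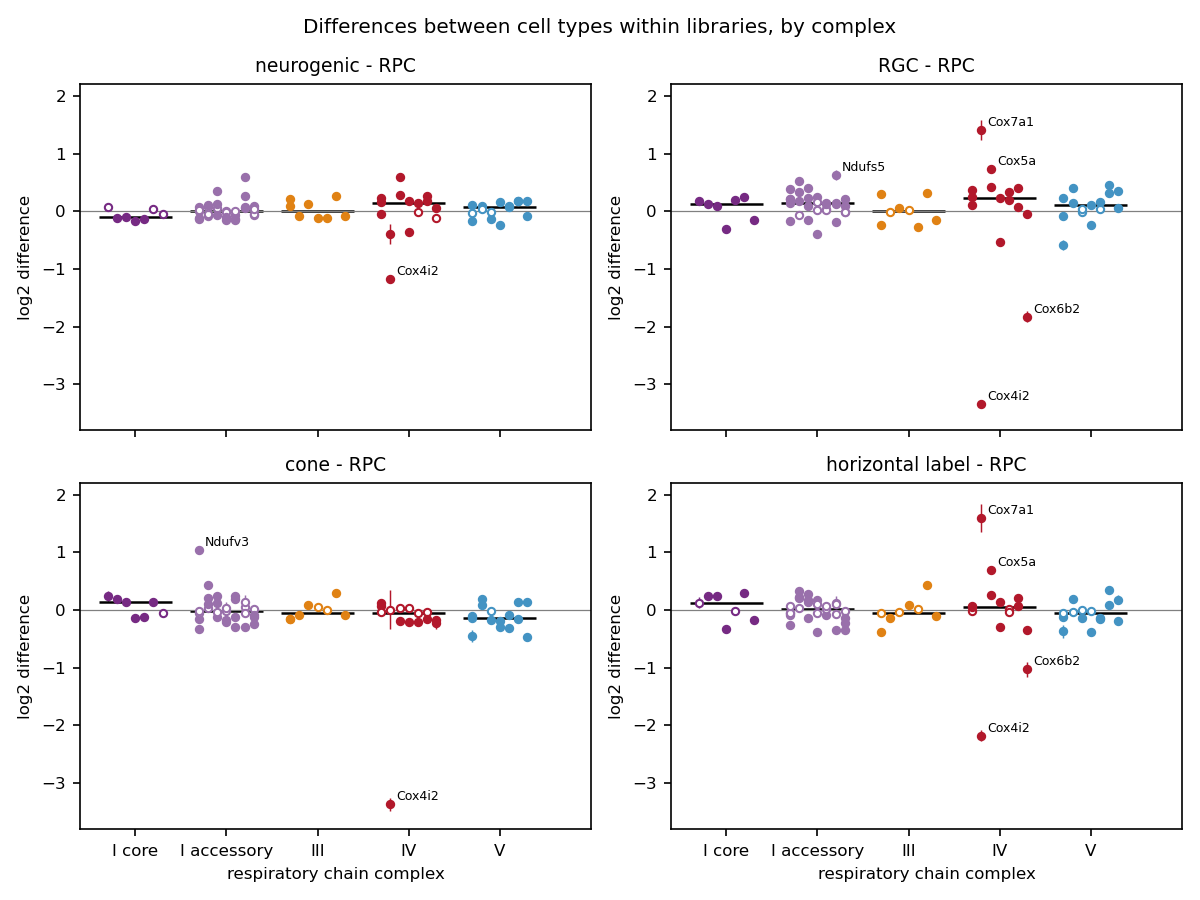
Log2 difference of each tested subunit gene from RPCs (vertical axis) by respiratory chain complex (horizontal axis) in 4 panels, 1 per cell type. Points are genes with their standard error, filled where called, and black lines are medians of a complex. In RGCs the median of complex IV is the highest at 0.22, with Cox4i2 and Cox6b2 far below it.

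By complex, the differences from RPCs in RGCs ran from complex IV, with 11 of 15 tested genes called higher and 4 lower (median log2 0.22), to complex III, with 3 of 8 higher and 3 lower (median 0.00). Complex IV here includes Ndufa4, which was first named as a complex I subunit. Accessory subunits of complex I had 18 of 29 higher and 4 lower (median 0.14), core subunits 5 of 7 higher and 2 lower (median 0.12), and complex V 9 of 15 higher and 3 lower (median 0.11). Single complexes were thus not shifted as a block. Within complex I, Ndufs7, a core subunit that holds an iron-sulfur cluster, fell by 0.31 on the log2 scale (SE 0.03, lower in 6 of 6 libraries), while Ndufv1, the subunit that binds NADH, was higher by 0.25 (SE 0.04, 6 of 6). Ndufa12, an accessory subunit, was lower by -0.39 (SE 0.03, 6 of 6). Within complex III, the Rieske iron-sulfur protein Uqcrfs1 was higher in all 4 other types than in RPCs, by 0.26 to 0.43 and in 6 of 6 libraries each time, whereas the core protein Uqcrc2 was lower in RGCs (-0.27) and at -0.00 in cones, where it was not called. In cones the 7 core subunits of complex I had a median of 0.13, with 4 called higher and 2 lower. Complex V had a median of -0.15, with 4 of 15 higher and 10 lower (32.2% and 36.7% of all genes). Under scaling by the total count the 2 lower core genes, Ndufs7 and Ndufs8, were at 0.061 and 0.0753 and not called. That scaling moved the median of all genes in cones from -0.05 to 0.15, so these medians depend on the scaling.

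The largest differences lay in complex IV, in genes for isoforms of a subunit. Cox4i2 encodes the alternative isoform of subunit 4, known from lung and from cells that sense low oxygen, and the gene lies on chromosome 2 (152754173 to 152765037, plus strand, GENCODE M21 on GRCm38). Its level in RPCs was 114 and 111 scaled CPM in the Bax het libraries, 109 and 108 in the Bax Null libraries, and 99.1 and 92.1 in the both-Null libraries. In RGCs the same libraries gave 12.6 and 10.6, 8.02 and 4.46, and 17.7 and 13.1. RPCs and RGCs did not overlap, and every library showed the drop. Neurogenic cells lay between, at 36.0 to 57.9 (median 46.2), cones at 6.15 to 15.8 (median 9.73), and the horizontal label at 16 to 36.1 (median 22.6). The log2 difference from RPCs was -1.17 (SE 0.04, edgeR adjusted p = 9.347e-30) in neurogenic cells, -3.35 (SE 0.07, adjusted p = 2.44e-41) in RGCs, -3.37 (SE 0.12, adjusted p = 2.71e-32) in cones and -2.18 (SE 0.10, adjusted p = 4.476e-27) with the horizontal label. RGCs and cones, the lowest pair, did not differ beyond the spread (0.02, SE 0.20, adjusted p = 0.94).

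The partner gene Cox4i1, the common isoform of subunit 4, stayed within a narrow range. It was called 0.11 higher in RGCs (SE 0.02, 6 of 6 libraries) and 0.07 higher in cones than in RPCs, and was at -0.02 with the horizontal label, where it was not called. Of the tags of both genes, Cox4i2 held 5.90% to 7.30% in RPCs over the 6 libraries, 2.57% to 4.17% in neurogenic cells, 1.13% to 2.27% with the horizontal label, 0.41% to 0.93% in cones and 0.28% to 1.06% in RGCs. The exact 95% intervals, which cover counting error only, reached from 5.67% to 7.61% over the RPC sums and from 0.20% to 1.40% over the RGC sums. These are shares of 3′ tags and are compared between cell types only. In a droplet assay free RNA can add tags to cells that lack a transcript; its part in the low shares of neurons was not tested.

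Cox6b2, the isoform of subunit 6b known from testis, fell in RGCs but hardly in cones. Its RPC levels ran from 16.3 to 42.2 scaled CPM over the libraries (median 29.3) and its RGC levels from 4.51 to 13.2 (median 7.70), without overlap. Cones ran from 7.06 to 50.3 (median 24.2) and the horizontal label from 8.01 to 18.4 (median 15.1). The log2 difference from RPCs was -1.83 in RGCs (SE 0.10, adjusted p = 8.973e-24, lower in 6 of 6) and -1.03 with the horizontal label (SE 0.13, 6 of 6). In cones it was -0.23 (SE 0.11, adjusted p = 0.047, lower in 4 of 6), and that call was lost in 10 alternatives, among them leaving out replicate 1 of the Bax het group (-0.11, adjusted p = 0.42), replicate 1 of the Bax Null group (-0.19, adjusted p = 0.15) or replicate 2 of the both-Null group (-0.16, adjusted p = 0.21). RGCs were lower than cones by -1.60 (SE 0.16, 6 of 6). The somatic partner Cox6b1 was 0.40 higher in RGCs than in RPCs (SE 0.02, 6 of 6) and at -0.03 in cones, where it was not called. Of the tags of both genes, Cox6b2 held 0.87% to 1.21% in RGCs and 3.89% to 5.28% in RPCs.

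Cox7a1, the isoform of subunit 7a known from heart and muscle, went the other way, at low levels. It was at 1.28 to 4.12 scaled CPM in RPCs (median 3.11), 4.32 to 14.7 in RGCs (median 5.65) and 5.01 to 14.7 with the horizontal label (median 7.22), and had 888 UMIs in all. RGCs were above RPCs in each library, by 1.31 to 4.11 times, and the ranges over libraries did not overlap. Of the tags of Cox7a1 and Cox7a2, however, Cox7a1 held 0.34% to 0.53% in RPCs and 0.52% to 1.25% in RGCs, and in replicate 2 of the Bax het group the RGC share (0.52%, exact 95% interval 0.27% to 0.88%) was not above the RPC share (0.53%). The log2 difference was 1.41 in RGCs (SE 0.17, adjusted p = 2.128e-10) and 1.60 with the horizontal label (SE 0.25, adjusted p = 1.085e-07). The common isoform Cox7a2 was 0.59 higher in neurogenic cells (SE 0.02) and 0.42 higher in RGCs (SE 0.02), in 6 of 6 libraries each. Cox7a2l, a related protein that joins complexes III and IV into supercomplexes, was lower than in RPCs in all 4 other types. The fall was largest in RGCs (-0.54, SE 0.03, adjusted p = 2.104e-24), then in neurogenic cells (-0.35), with the horizontal label (-0.29) and in cones (-0.20), in 6 of 6 libraries each. In cones it was at -0.01 under scaling by the total count.

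Cox5a, another nuclear subunit of complex IV, had the largest rise in RGCs among the members above 20 CPM. Its RGC levels were 750 and 706 scaled CPM in the Bax het libraries, 1238 and 1318 in the Bax Null libraries, and 804 and 778 in the both-Null libraries. The RPCs of these libraries were at 482 and 406, 724 and 741, and 502 and 485. Within each library RGCs were 1.56 to 1.78 times the RPC level, while RGCs of 1 group overlapped RPCs of another. The log2 difference was 0.73 (SE 0.03, adjusted p = 2.274e-32) in RGCs, 0.69 (SE 0.03) with the horizontal label and 0.28 (SE 0.02) in neurogenic cells, and cones were lower by -0.20 (SE 0.03, 6 of 6). RGCs were thus 0.93 above cones (SE 0.03, adjusted p = 7.013e-32, 6 of 6). Scaling by the total count moved the median of all genes in cones, relative to RPCs, from -0.05 to 0.15. That shift is about as large as the fall of Cox5a in cones, so the direction of this fall is uncertain.

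**Figure D3:**
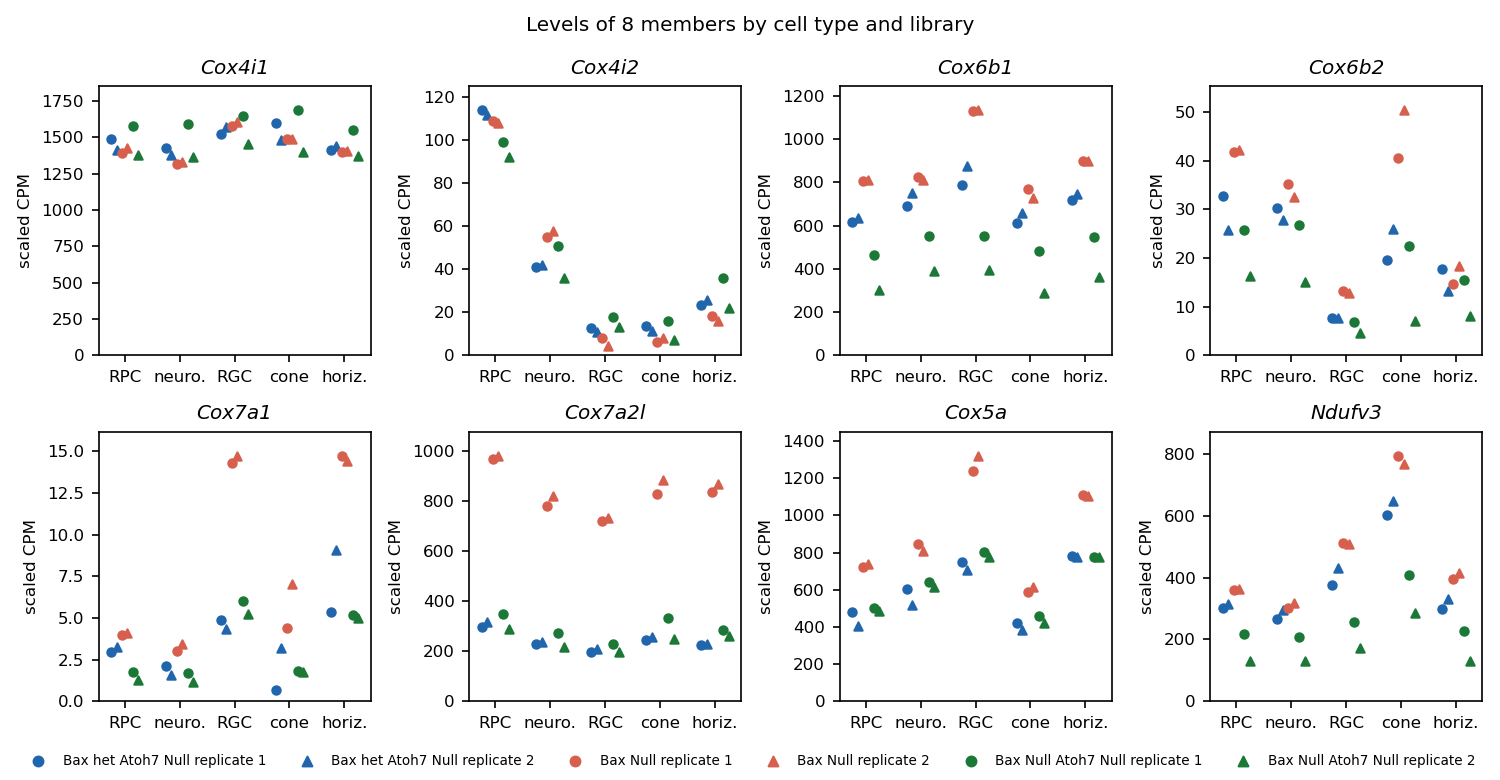
Levels in TMM-scaled CPM (vertical axes, from 0) of 8 members by cell type (horizontal axes). Each point is 1 library, coloured by group, with circles for replicate 1 and triangles for replicate 2. Cox4i2 is highest in RPCs and near the bottom in RGCs and cones, Cox6b2 is low in RGCs and not in cones, and Ndufv3 is highest in cones.

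Cones had their own leading gene. Ndufv3, an accessory subunit of the NADH-oxidising arm of complex I, was at 601 and 647 scaled CPM in cones of the Bax het libraries, 792 and 767 in Bax Null and 408 and 284 in the both-Null group. RPCs of the same libraries were at 302 and 315, 359 and 363, and 219 and 131. Cones were 1.87 to 2.21 times the RPC level in each library, and the log2 difference was 1.04 (SE 0.03, adjusted p = 8.693e-35). RGCs were also above RPCs (0.40, SE 0.03) but below cones (-0.64, SE 0.03, 6 of 6), and neurogenic cells were slightly below RPCs (-0.14, SE 0.03, 6 of 6). Ndufa6, another accessory subunit, was 0.44 higher in cones (SE 0.04) and 0.34 higher with the horizontal label, in 6 of 6 libraries each.

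The 3 genes for subunit c of the ATP synthase rotor, which encode the same mature protein, differed among themselves. Atp5g3 was 0.40 higher in RGCs than in RPCs (SE 0.03, 6 of 6), Atp5g1 was 0.06 higher (SE 0.03, adjusted p = 0.044, 5 of 6) and Atp5g2 was lower (-0.58, SE 0.08, 5 of 6). The call for Atp5g1 was lost in 7 alternatives, among them leaving out replicate 2 of the Bax het group (0.05, adjusted p = 0.17), leaving out either Bax Null library (0.06 each, adjusted p = 0.088 and 0.098) and leaving out replicate 2 of the both-Null group (0.04, adjusted p = 0.20). In cones Atp5g1 was lower (-0.46, SE 0.03, 6 of 6), as was Atp5g2 (-0.45, SE 0.10, 6 of 6). The values for Atp5g2 give the 3 groups equal weight, although the gene was nearly missing outside the Bax Null libraries, as given below. There it had 19 to 30 UMIs per library in RGCs and 10 to 22 in cones, so these values are uncertain. Atp5d, the delta subunit of the ATP synthase, was lower than in RPCs in all 4 other types, by -0.23 to -0.38 and in 6 of 6 libraries each. Atp5f1, a subunit of the peripheral stalk, was higher in all 4, by 0.13 to 0.45 and also in 6 of 6.

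Promoter sequence was available in RefSeq (GRCm38.p6, 250 bases before to 50 after the start) for 67 of the 80 genes. Among the 13 without an entry were Cox4i1 and Cox4i2, Uqcrc2 and Uqcrq, and Cox6c. Letters of 3 factors known to bind promoters of respiratory genes were searched on both strands. GCGCA, any base and GCGC (NRF1) occurred in 15 members (22.4%) against 5.19% of all 27025 genes, CCGGAAG (ETS factors such as GABPA) in 14 (20.9%) against 9.93%, and AAGATGGC (YY1) in 11 (16.4%) against 3.19%. NRF1 and ETS matches coincided in 3 members, NRF1 and YY1 in 1, and ETS and YY1 in 1. The members' promoters were richer in G and C (median 57.0%, all genes 52.7%), and the part of base composition in these shares was not tested. Of the 35 members with any of the letters, 21 were called higher and 4 lower in RGCs than in RPCs, and of the 32 with none, 30 were tested, of which 18 were called higher and 9 lower. A match is a description and not a bound site.

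3 promoters of genes that were higher in RGCs are shown because they differ in these letters; capitals mark matches on either strand. Cox6a1, the common isoform of subunit 6a (0.34 above RPCs in RGCs, SE 0.02, 6 of 6), has NRF1 letters upstream and ETS letters near the start (chr5:115348909-115349208, minus strand). Atp5g3 has NRF1 letters just after the start (chr2:73911277-73911576, minus strand). Cox5a, with the largest difference of the 3, holds none of them in this window (chr9:57520982-57521281, plus strand).
Cox6a1: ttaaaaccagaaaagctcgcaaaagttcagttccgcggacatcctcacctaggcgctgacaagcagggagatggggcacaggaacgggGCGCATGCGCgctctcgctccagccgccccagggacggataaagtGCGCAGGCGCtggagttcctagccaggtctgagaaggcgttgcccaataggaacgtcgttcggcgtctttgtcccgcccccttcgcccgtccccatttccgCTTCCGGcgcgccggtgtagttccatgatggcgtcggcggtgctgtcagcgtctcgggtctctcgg
Atp5g3: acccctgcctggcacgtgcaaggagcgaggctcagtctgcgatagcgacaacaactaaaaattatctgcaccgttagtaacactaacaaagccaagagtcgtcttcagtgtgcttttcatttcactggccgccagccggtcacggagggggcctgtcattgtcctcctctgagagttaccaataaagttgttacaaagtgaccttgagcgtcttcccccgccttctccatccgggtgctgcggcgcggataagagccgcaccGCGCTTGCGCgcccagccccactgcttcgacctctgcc
Cox5a: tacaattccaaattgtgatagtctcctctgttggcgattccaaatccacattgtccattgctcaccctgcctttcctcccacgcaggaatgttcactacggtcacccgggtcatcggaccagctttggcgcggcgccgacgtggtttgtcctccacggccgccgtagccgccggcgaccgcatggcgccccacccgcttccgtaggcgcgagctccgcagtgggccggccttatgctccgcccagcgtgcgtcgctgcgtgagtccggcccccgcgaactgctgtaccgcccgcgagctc

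Other genes of the pathway, from lists kept whole, showed how far the RGC pattern reached. All 5 listed subunits and carriers outside the name filter were called higher in RGCs than in RPCs, in 6 of 6 libraries each. Atpif1, the inhibitor of ATP synthase reversal, was higher by 0.82 (SE 0.02), the small ATP synthase subunit Usmg5 by 0.68 (SE 0.03), cytochrome c (Cycs) by 0.66 (SE 0.04), cytochrome c1 (Cyc1) by 0.33 (SE 0.03) and 2010107E04Rik, another small ATP synthase subunit, by 0.18 (SE 0.03). Complex II split, with Sdhb at 0.25 and Sdhc at 0.22 called higher and the catalytic subunit Sdha at -0.64 and Sdhd at -0.16 called lower. Of the 13 mitochondrially encoded subunits, 1 was called higher and 5 lower, with a median of -0.06. Outside the Bax Null libraries, mt-Nd3, mt-Nd4l, mt-Co2, mt-Co3, mt-Atp6 and mt-Atp8 were at 5.54 CPM or less. For these genes the values of the Bax het and both-Null groups rest on few or no tags. Assembly factors had 15 of 38 tested called higher and 13 lower, and the citrate cycle 6 of 17 higher and 5 lower.

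Genes for regulators of mitochondrial biogenesis were mostly lower in RGCs, with 2 of 12 tested called higher and 8 lower. Tfam, which packages and helps transcribe mitochondrial DNA, was at 51.4 scaled CPM in RGCs and 104.5 in RPCs on average over the 6 libraries (log2 -1.02, SE 0.05, 6 of 6), and Nrf1 was at -0.62 (SE 0.07, 6 of 6). Esrra (0.50, SE 0.07) and Gabpb1 (0.24, SE 0.06) were the 2 called higher. Glycolysis genes had 4 of 16 tested called higher and 9 lower (median -0.46), among them Hk2 at -1.94 (SE 0.09) and Eno1 at -1.07 (SE 0.03). Pfkp, a phosphofructokinase, was higher by 2.90 (SE 0.12), and of the lactate dehydrogenases Ldhb was higher by 1.34 (SE 0.03) and Ldha lower by -0.70 (SE 0.03), all in 6 of 6 libraries. The mitochondrial ribosome, whose proteins translate the mitochondrially encoded subunits, had 18 of 76 tested genes called higher and 42 lower (median -0.20). All these counts stand beside the 38.4% higher and 41.3% lower of all genes tested.

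Between genotype groups within a cell type, the members were lower in both Atoh7 Null groups than in Bax Null under TMM scaling. Of the 76 genes tested in RGCs, 3 were called higher and 50 lower in the Bax het group than in Bax Null (50% of the 10586 genes tested, 25% and 25%), with a median log2 difference of -0.50 against 0.01 for all genes. In the both-Null group, 5 were called higher and 61 lower than in Bax Null (52.7% of all genes, 26.2% and 26.5%), with a median of -1.06 against 0.02. Both comparisons share the Bax Null libraries. In RPCs the counts were 3 higher and 51 lower (53.1% of genes, 26.6% and 26.5%) and 4 higher and 60 lower (53.9%, 26.8% and 27.1%). In neurogenic cells they were 4 and 44 (47.1%, 23.4% and 23.8%) and 4 and 54 (47.3%, 23.5% and 23.8%). In cones, where 75 members were tested, they were 1 and 43 (27.5%, 12.7% and 14.8%) and 1 and 54 (28.1%, 12.5% and 15.6%). With the horizontal label, also with 75, they were 1 and 43 (30.2%, 14.4% and 15.8%) and 1 and 52 (29.2%, 13.5% and 15.7%). Leaving out any 1 of the Bax het or Bax Null libraries lowered the first count in RPCs to 30 to 33, in neurogenic cells to 22 to 28 and with the horizontal label to 23 to 28. In cones it was 23 to 27 called without Bax het replicate 1 or either Bax Null library. Without the shared cells, the both-Null group had 3 higher and 60 lower than Bax Null in RPCs, 4 and 51 in neurogenic cells and 4 and 60 in RGCs. Cones then had 1 and 53, and the horizontal label 1 and 50.

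The level shift between these groups depended on the scaling. Scaling by the total count alone moved the median of all genes to 0.47 to 0.64 in these 10 comparisons. Under it the members split, in the Bax het group against Bax Null, to 21 higher and 15 lower in RPCs, 20 and 12 in neurogenic cells, 15 and 19 in RGCs, 8 and 14 in cones and 12 and 12 with the horizontal label. For the both-Null group against Bax Null it gave 22 and 38 in RPCs, 23 and 30 in neurogenic cells, 18 and 41 in RGCs, 13 and 37 in cones and 16 and 37 with the horizontal label. The members lay below the median of all genes under both scalings. With the total count their median in RGCs was -0.01 against 0.50 for all genes in the Bax het group, and -0.45 against 0.63 in the both-Null group.

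Depth and the share of mitochondrially encoded tags moved with these groups. The Bax Null libraries were the deepest, as given above, and their mitochondrially encoded genes took 3.66% to 4.2% of UMIs, against 1.04% to 1.19% in the other libraries. That gap lay in some of the 13 genes. The ATP synthase subunit mt-Atp6 was at 8740 and 9020 CPM in the Bax Null libraries and at 3.74 to 4.55 in the other 4. For the complex IV subunits mt-Co2 and mt-Co3, the Bax Null libraries had 4626 and 4744, and 7041 and 7334 CPM, and the other libraries 1.45 to 2.01 and 3.87 to 5.54. The complex I subunit mt-Nd3 was at 884 and 887 CPM against at most 0.208, and mt-Nd4l and mt-Atp8 had no UMI outside the Bax Null libraries. By contrast mt-Nd4 was at 1842 to 2080 CPM and mt-Cytb at 3594 to 4223 over all 6 libraries. The split in the first set of genes runs between the same libraries as that of the 4 members described next. The part of depth or of these genes in the difference was not tested, and the genotype, the depth and the preparation of the libraries cannot be told apart here.

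4 members were nearly missing outside the Bax Null libraries. Over all cells of a library, Atp5g2 was at 758 and 780 CPM in the Bax Null libraries and at 9.64 and 14.8 in the Bax het group and 16.9 and 16.8 in the both-Null group. Atp5l, subunit g of the ATP synthase, was at 797 and 786, then at 42.2 and 58.8, and at 39.0 and 32.8. Both groups without Atoh7 were far below Bax Null for these genes, with no overlap. Ndufb4, an accessory subunit of complex I, was at 202 and 203 CPM, then at 21.9 and 27.5, and at 9.52 and 9.88. Ndufs5, another one, was at 336 and 315 CPM in Bax Null, at 37.1 and 2.84 in the Bax het group and at 18.0 and 2.49 in the both-Null group, so that its replicates also disagreed within both of the latter groups. In RGCs the log2 difference of the Bax het group from Bax Null was -6.27 for Atp5g2 (SE 0.14, edgeR adjusted p = 4.168e-12), -4.33 for Atp5l (SE 0.15), -3.68 for Ndufb4 (SE 0.13) and -4.60 for Ndufs5 (SE 0.51).

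Each of these 4 genes has another gene in the annotation with a near-identical transcript end, the part that 3′ tags are read from. The end counts as near-identical when at least 80 of the last 200 bases align at 97% identity or more, and 20 of the 80 members have such a copy. Atp5l has 10 copies, Atp5g2 has 2 and Ndufs5 and Ndufb4 have 1 each. How reads that match both a gene and its copy were counted is not given in the sources used here, so the levels of these 4 genes are uncertain. The part of the copies in the split between libraries was not tested. Of all other members that were higher in the Bax Null libraries, Cox7a2l had the largest gap, with the lower Bax Null library 1.86 times the highest of the other 4. Without the 20 genes that have copies, 34 of 56 members were called lower and 2 higher in RGCs of the Bax het group than in Bax Null (median -0.45), and 43 lower and 4 higher in the both-Null group (median -0.80).

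**Figure D4:**
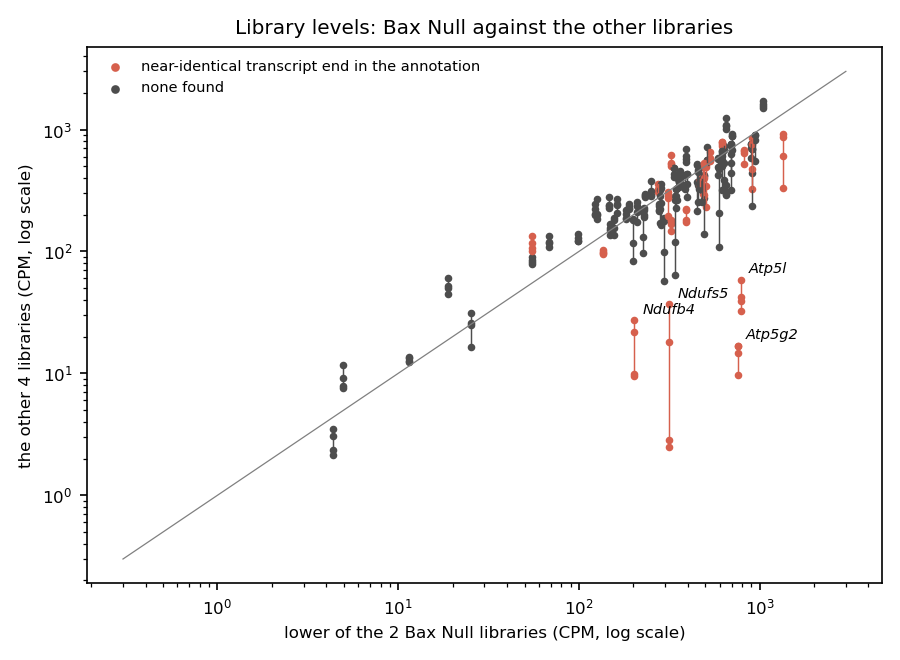
Library levels of the members above 1 CPM in the lower Bax Null library (horizontal axis, CPM, log scale) against their levels in each of the other 4 libraries (vertical axis, CPM, log scale), with a line joining the 4 values of a gene. The grey diagonal marks equal levels, and red genes have a near-identical transcript end elsewhere in the annotation. Atp5l, Atp5g2, Ndufs5 and Ndufb4 lie far below the diagonal and all 4 are red.

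A few members went the other way and were higher outside the Bax Null libraries. Ndufs1, the largest core subunit of complex I, was at 30.5 scaled CPM in RGCs of Bax Null, 50 in the Bax het group and 48.1 in the both-Null group on average. Its log2 difference from Bax Null was 0.73 (SE 0.12, edgeR adjusted p = 0.0002878) and 0.66 (SE 0.12, adjusted p = 0.000496). Ndufa9, an accessory subunit, was higher by 0.42 in both groups (SE 0.10 and 0.09). By the rule for transcript ends it counts among the members with copies. Its 3 matches, however, are the differently named genes Bbip1, Ecsit and Prkch. Under scaling by the total count Ndufs1 and Ndufa9 were further above Bax Null, Ndufs1 by 1.22 and 1.27 and Ndufa9 by 0.91 and 1.03.

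The both-Null group against the Bax het group, the pair of groups that both lack Atoh7, gave fewer calls, all of them lower. Depth moved with this comparison too, at median 1940 and 1634 UMIs per cell against 2632 and 2206, and its part was not tested. In RGCs 23 of 76 members were called lower and 0 higher (2.34% of all genes, 2.1% and 0.246%). In RPCs 10 were lower (2.01% of genes, 1.95% lower and 0.0597% higher), in neurogenic cells 15 (1.77%, 1.76% and 0.00857%), in cones 17 of 75 (1.46%, 1.43% and 0.0318%) and with the horizontal label 22 of 75 (1.61%, 1.54% and 0.067%). The median log2 difference of the members was -0.29, -0.25, -0.28, -0.26 and -0.35 in RPCs, neurogenic cells, RGCs, cones and the horizontal label, against -0.00 to 0.02 for all genes. Without the cells whose barcodes the both-Null libraries shared, the counts were 1, 7, 10, 13 and 8 in the same order, with medians of -0.28, -0.22, -0.27, -0.25 and -0.32. Atp5k, subunit e of the ATP synthase, showed the largest fall in RGCs. Its RGC levels were 553 and 551 scaled CPM in the Bax het group, 202 and 108 in the both-Null group and 951 and 1084 in Bax Null. The groups did not overlap, and the log2 difference was -1.83 (SE 0.21, edgeR adjusted p = 0.001348). Ndufa3, an accessory subunit of complex I, fell from 236 and 285 to 101 and 55.6 (-1.74, SE 0.20, adjusted p = 0.001348). Across the other 4 types Atp5k was lower by -1.57 to -1.71 and Ndufa3 by -1.59 to -1.90, all called. In neurogenic cells both calls were lost without replicate 2 of the Bax het group (adjusted p = 0.09021 for Atp5k and 0.07658 for Ndufa3). In RPCs both were lost without either Bax het library (highest adjusted p = 0.1688 and 0.1674) and without the shared cells.

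These counts moved when single libraries were left out. With 1 of 2 libraries left out, the spread comes from the other groups, and the lone library is assumed to vary like them. Leaving out replicate 1 of the both-Null group raised the counts to 38, 35, 36, 35 and 35 in RPCs, neurogenic cells, RGCs, cones and the horizontal label. Leaving out replicate 2 of the Bax het group lowered them to 1, 0, 6, 10 and 2, and leaving out replicate 1 of that group gave 1, 4, 11, 13 and 8. In RPCs the count was 24 without replicate 2 of the both-Null group, and in neurogenic cells it was 7 without either Bax Null library. The 2 libraries of the both-Null group differed more from each other in these genes (median absolute log2 ratio 0.28) than those of the Bax het group (0.06) or Bax Null (0.02), and more than all 5737 genes over 20 CPM did in the same group (0.17).

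The annotated transcripts of the members are mostly short, and members under 600 bases had the lowest median difference. Length here is the median over all annotated transcripts of a gene, so it need not be that of the main transcript. Ndufs1, the largest core subunit of complex I, is thus at 826 bases, and the 2 members over 2000 bases are Ndufb7 and Atp5g1. The median transcript length of the 80 genes is 588 bases, against 1428 for the protein-coding genes tested, and 74 of the 80 are under 1000 bases. In RGCs the 38 members under 600 bases had a median log2 difference of -0.60 between the both-Null group and the Bax het group, and the 32 members from 600 to 1000 bases one of 0.01. The 4 members from 1000 to 2000 bases had a median of 0.02 and the 2 longer ones one of -0.38. The 608 protein-coding genes under 600 bases that are no members had a median of -0.07, and the 3202 from 600 to 1000 bases one of 0.00. The part of transcript length or RNA quality in the fall was not tested.

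**Figure D5:**
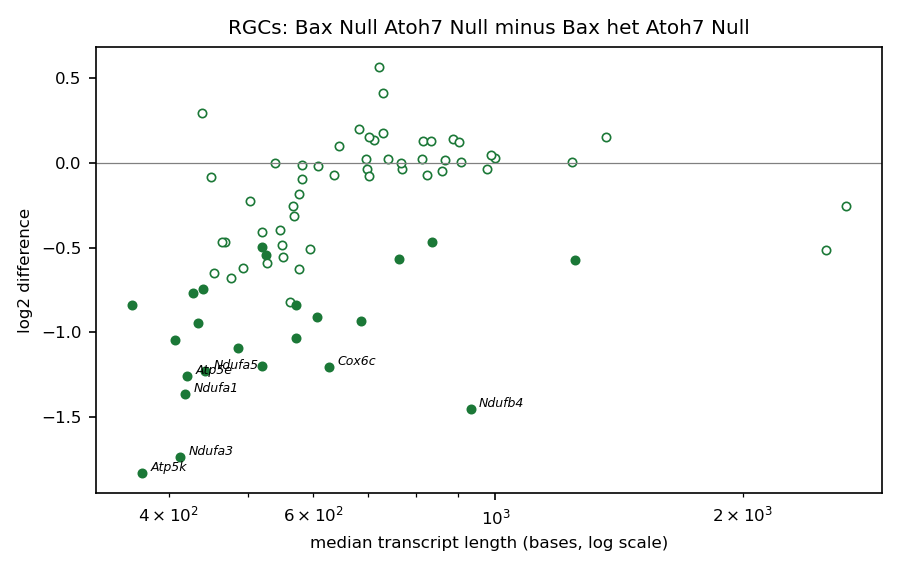
Log2 difference between the both-Null group and the Bax het group in RGCs (vertical axis) against the median annotated transcript length in bases (horizontal axis, log scale). Each point is 1 of the 76 members tested, filled where called. Members under 600 bases reach -1.83 (Atp5k), while many from 600 to 1000 bases lie near 0, with Ndufb4 at -1.45 the lowest of them.

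Last, the fit asked whether a cell type difference itself depended on genotype. Between the both-Null group and the Bax het group no member's difference from RPCs was called in any of the 4 types. edgeR called 0 of 76 each time and DESeq2 0, with 5, 3, 7 and 3 members at an unadjusted p under 0.05 in neurogenic cells, RGCs, cones and the horizontal label. Over all 12180 genes, 0.0%, 0.0985%, 0.00821% and 0.0% were called. Against Bax Null, the neurogenic difference was called for 21 members in the both-Null group, all higher (6.42% of genes, 3.73% higher and 2.69% lower), and for 15 in the Bax het group, 14 higher and 1 lower (7.04%, 3.46% and 3.58%). The RGC difference was called for 11, with 4 higher and 7 lower (18.1%, 10.1% and 8.05%), and for 5, with 3 higher and 2 lower (17.3%, 8.89% and 8.4%). The cone difference was called for 11 (5.44%, 3.27% and 2.18%) and 12 (6.05%, 3.37% and 2.68%), and that of the horizontal label for 3 and 3, all higher (3.08%, 1.54% and 1.54%, and 2.8%, 1.13% and 1.67%). These counts too moved when single libraries were left out. Leaving out Bax Null replicate 2 lowered the neurogenic counts to 0 and 2, the RGC counts to 6 and 2, the cone counts to 1 and 5 and those of the horizontal label to 0 and 1. Without Bax Null replicate 1 they were 5 and 7, 7 and 4, 3 and 6, and 0 and 0 in the same order. Without replicate 1 or 2 of the both-Null group, the first count was 5 or 10 in RGCs, 2 or 4 in cones and 1 in either case with the horizontal label. Without replicate 1 or 2 of the Bax het group, the second count was 10 or 1 in neurogenic cells, 3 or 1 in RGCs, 4 or 5 in cones and 3 or 0 with the horizontal label, and without either both-Null library it was 26, 14, 14 and 5. Several of these splits depended on the scaling. In RGCs the total count gave 3 higher and 16 lower in the both-Null group and 3 and 12 in the Bax het group, RLE factors gave 3 and 16, and 3 and 8, and DESeq2 gave 3 and 15, and 2 and 9. With the horizontal label the total count, RLE factors and DESeq2 each gave 0 calls in the both-Null group. In the Bax het group the total count gave 0 higher and 5 lower there, and RLE factors and DESeq2 each 2 and 1. Under scaling by the total count the cone calls turned from 8 higher and 3 lower to 1 and 9 in the both-Null group, and from 10 and 2 to 1 and 13 in the Bax het group.

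Among these, Cox4i2 had the largest value. Its fall from RPCs to RGCs was deepest in Bax Null, where RGCs were at 8.02 and 4.46 scaled CPM, and shallower by 1.49 on the log2 scale in the both-Null group (SE 0.24, edgeR adjusted p = 2.764e-06, from 1.695e-08 to 0.2012 over the alternatives) and by 0.82 in the Bax het group (SE 0.27, adjusted p = 0.022). The first was lost when the sums were thinned to the smallest one. The second was lost in 7 alternatives, with an adjusted p of 0.0025 to 0.565 over all of them, among them leaving out replicate 1 or 2 of the Bax het group (0.72 and 0.95, adjusted p = 0.2017 and 0.1146) and replicate 2 of the Bax Null group (0.43, adjusted p = 0.38). Cox7a1 had a smaller RGC excess in the Bax het group than in Bax Null (-1.31, SE 0.33, adjusted p = 0.0023), a call that was lost without replicate 2 of the Bax het group (-1.11, adjusted p = 0.1239). Its RGC levels were 4.85 and 4.32 against 14.3 and 14.7 scaled CPM, and rest on 10 and 13 UMIs against 116 and 122. Ndufa1, an accessory subunit of complex I, was at 251 and 250 scaled CPM in cones of the Bax Null group against 416 and 434 in its RPCs. In the Bax het group cones were at 158 and 172.5 and RPCs at 161 and 164. Cones were thus below RPCs in Bax Null and near them in the Bax het group, and the cone difference was 0.78 higher in the latter (SE 0.10, adjusted p = 6.495e-08), called in every alternative run.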

How the data were processed

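The deposited matrix holds raw UMI counts per gene and cell, made by the authors from droplet 3′ libraries with Cell Ranger 1.2.1 on mm10, per the submitters' processing notes. The aligner's annotation and the cell filters are not given in the sources used here. Cell types are the authors' labels. The cell table also holds 26078 cells of 2 libraries that match no sample, which were not used here. Counts of the 67050 other cells were summed per library and cell type into 30 sums. edgeR 4.0.16 (limma 3.58.1, R 4.3.3) fitted quasi-likelihood models to all genes that passed its filter on low counts, with TMM factors and Benjamini-Hochberg adjustment over all genes tested. Cell types were compared in 1 fit with library and type within group as terms, and genotype groups in 1 fit per type with 3 groups of 2 libraries. Calls were made at an adjusted p under 0.05. The fits were tested on simulated counts. Tables and figures were made with Python 3.11.15 and matplotlib 3.10.9. Shares have exact binomial intervals at 95%, which cover counting error only.

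The members and lists were chosen with earlier results of these data known. Named genes are up to 3 highest and 3 lowest called members per comparison, with at least 20 CPM in the higher group and 1 direction in all libraries, the isoform families, members that did not pass the filter, and members called against the median of their complex. Alternatives were RLE factors, scaling by the total count, no filter, DESeq2 1.42.0, each library left out, cells under 1000 UMIs or the 8% of cells with most UMIs left out, mitochondrially encoded genes left out, thinned sums, the replicate number as a block, and only the libraries compared. Leaving out cells with shared barcodes and leaving out genes with near-identical copies were chosen after seeing the data. Doublets were not called, and the alternative without the deepest cells stands in for that. Lengths and copies come from GENCODE M21, and promoters from RefSeq.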

Additional observations from a re-analysis of the deposited data

Results flagged for a closer look

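Members were singled out where their difference between a cell type and RPCs itself differed between genotype groups in the edgeR fit. Against the Bax Null group, this held in neurogenic cells for 21 of 76 members in the both-Null group and 15 in the Bax het group. Over all genes tested, 6.42% and 7.04% were called there. In RGCs it held for 11 and 5 members (18.1% and 17.3% of all genes), and in cones for 11 and 12 (5.44% and 6.05%). With the horizontal label it held for 3 and 3 (3.08% and 2.8%). As given above, these counts moved when single libraries were left out. Depth per cell differs between the same groups and cannot be told apart from genotype. So does the level of some mitochondrially encoded genes, such as mt-Co2 and mt-Atp6, which were nearly missing outside the Bax Null libraries, while mt-Nd4 and mt-Cytb were not.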

How the results depend on the processing

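Counts are members called, in the order neurogenic, RGC, cone and horizontal label unless named. For differences from RPCs, scaling by the total count gave 46 higher in cones and 46 with the horizontal label, and 17, 8 and 11 lower in neurogenic cells, cones and the horizontal label, with 27 lower in RGCs than in cones. Without the filter, 10 were higher in cones, 14 higher and 39 lower with the horizontal label. Thinned sums gave 15 higher and 8 lower in neurogenic cells, 18 lower in cones and 11 lower in RGCs than in neurogenic cells. Leaving out 1 library gave 27 to 31, 41 to 47, 12 to 20 and 17 to 21 higher, and 19 to 27, 16 to 17, 31 to 34 and 23 to 26 lower. Against neurogenic cells, RGCs had 35 to 44 higher and 15 to 21 lower, and against cones 37 to 40 and 9 to 12.

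For the both-Null against the Bax het group, DESeq2 gave 21 in RPCs and 13 with the horizontal label, and the replicate block 21 in RPCs. Without the filter there were 5 in RPCs, 32 in neurogenic cells and 26 in cones. With only the 4 libraries compared there were 7, 12, 8 and 12, and without shared barcodes 1 in RPCs, 7 in neurogenic cells, 10 in RGCs and 8 with the horizontal label. For the Bax het against the Bax Null group, DESeq2 gave 27 in cones and 23 with the horizontal label, and scaling by the total count gave 34 in RGCs, 22 in cones and 24 with the horizontal label. Leaving out 1 library gave, from RPCs to the horizontal label, 1 to 38, 0 to 35, 6 to 36, 10 to 35 and 2 to 35 between the groups without Atoh7, 30 to 69, 22 to 60, 43 to 66, 23 to 57 and 23 to 55 for the Bax het against the Bax Null group, and 53 to 70, 48 to 67, 60 to 67, 47 to 57 and 46 to 58 for the both-Null group.

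For type differences that differ from the Bax Null group, the both-Null group had, with RLE factors, 12, 19, 7 and 0, with DESeq2 12, 18 and (horizontal label) 0, under scaling by the total count 6, 19 and (horizontal label) 0, and without the filter 11, 19 and (horizontal label) 1. Without the deepest 8% of cells it had 4 in neurogenic cells and 6 in RGCs. With thinned sums it had 0, 1, 1 and 0, and without shared barcodes 20, 5, 7 and 1. The Bax het group had 11 in RGCs with RLE factors and 11 with DESeq2, 8, 15 and (horizontal label) 5 under scaling by the total count, 8 in RGCs without the filter, 2, 8 and (horizontal label) 5 without the deepest cells, and thinned 1, 2, 1 and 0. Leaving out 1 library gave 0 to 22, 5 to 11, 1 to 11 and 0 to 3 in the both-Null group, 1 to 26, 1 to 14, 4 to 14 and 0 to 5 in the Bax het group, and 0 to 0 between the groups without Atoh7. The causes were not tested.

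Without mitochondrially encoded genes in the total, the members' share in the Bax Null group was 3.11% in RPCs, 3.23%, 3.62%, 3.52% and 3.52%, and in the Bax het group 3.14% in cones and 3.10% with the horizontal label. Single genes changed sign from called values. Among these values were -0.13 for Ndufs7 and -0.12 for Ndufs8 in cones, and -0.13 for Ndufb7 with the horizontal label. Under scaling by the total count, relative to RPCs, Cox8a went to 0.0287 in cones and 0.00573 in RGCs (and to -0.0230 in RGCs against cones), Ndufs7 to 0.061 and Ndufs8 to 0.0753 in cones, and Ndufa13 to 0.0496 and Ndufb7 to 0.00637 with the horizontal label. Without the filter, Cox4i1 went to -0.00758 in cones, and Atp5k to -0.00382 and Uqcrc1 to -0.00301 with the horizontal label. With thinned sums Uqcrb went to -0.0532 for the neurogenic difference of the both-Null group. Replicate numbers are not stated to mark shared litters. Same-numbered libraries of the Bax het and both-Null groups correlated in their deviations by 0.0371 to 0.287 over the 5 types, and those of the other pairs of groups by -0.0972 to 0.0517, so the block was not taken as a pairing. With 1 of 2 libraries left out, the lone one is assumed to vary like the other groups. The smallest sum held 826841 UMIs, and the 4 isoform genes with at most 19 UMIs did not pass the filter.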
